A study of Mus musculus with 8 samples.

Results

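The 9 genes Igsf9, Adam19, Gpr141, Trim12c, Lst1, Mpp7, Tmtc2, Ifrd1 and Pde4b, of 57010 in the gene table, were followed in mouse kidney macrophages and in the other cell classes of the same single-cell RNA-seq experiment. They were chosen by their measured level in macrophages, which with entospletinib lay on the same side of the vehicle level at all 3 time points after injury, 5 of them higher (Igsf9, Adam19, Gpr141, Trim12c and Lst1) and 4 lower (Mpp7, Tmtc2, Ifrd1 and Pde4b). That contrast in macrophages chose the genes, so its values are given as a description with no test. Levels are in CPM, a gene's counts scaled so that all counts of the cells sum to the same total. Among 6012 genes whose mean level in macrophages was 20 CPM or more, 21.9% were higher with entospletinib than the median gene at all 3 days and 18.7% were lower at all 3 days, so the shared direction by itself is common.

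Macrophages of the kidney engulf dying tubular cells and recruit other leukocytes after ischemia-reperfusion injury (IRI), and both resident cells and cells derived from blood monocytes take part in repair. Spleen tyrosine kinase (SYK) carries signals from Fc receptors and C-type lectin receptors into these cells, and entospletinib is a small molecule that inhibits it. The 9 genes are not classical inflammation markers. They encode a cell adhesion protein (Igsf9), a membrane protease (Adam19), an orphan receptor (Gpr141), a leukocyte membrane adaptor (Lst1), a relative of a retrovirus restriction factor (Trim12c), a polarity scaffold (Mpp7), a sugar transferase of the endoplasmic reticulum (Tmtc2), a transcriptional coregulator (Ifrd1) and an enzyme that degrades cyclic AMP (Pde4b).

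The kidneys came from male C57BL/6 mice. One group was an uninjured control, and the other 6 had unilateral renal IRI and were collected at day 1, 7 or 14 after vehicle (DMSO) or entospletinib, both first given intraperitoneally before the injury. By the study's methods the mice of day 1 had no further dose, and those of days 7 and 14 were dosed repeatedly. Cells of 3 mice were pooled per condition, so each of the 7 conditions is 1 sample with no replicate. The live, leukocyte-enriched sorted cells of all conditions were barcoded on 1 plate and divided over 8 sublibraries. The SD and ranges over the 8 sublibraries therefore measure technical error only, and so do the 95% exact Poisson intervals of summed counts. Ranges that do not overlap are a description of the chosen genes, since the share of all genes with ranges apart is not given.

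Of 120281 barcodes, 79389 cells passed the limits on genes, counts, mitochondrial and ribosomal protein content, and 18375 of them were gated as macrophages because they held at least 3 markers of a macrophage list, among them C1qa, C1qb, C1qc, Adgre1, Csf1r and Cd81, and did not reach the minimum of any other class. These 6 markers summed to 3606 CPM in the gated cells against 533 CPM in monocytes, and all 6 were present in each condition. The gate held 1449 to 5849 macrophages per condition, with a median depth of 1095 (entospletinib day 14) to 3802 (vehicle day 1) counts per cell. The ribosomal protein limit removed 4.24 to 8.53% of cells in control and vehicle and 12.1 to 29.0% in entospletinib. Of 105340 well combinations 0 occurred in more than 1 condition, and 13712 occurred in more than 1 sublibrary.

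All 9 genes had a place in the gene annotation (GENCODE M21 on GRCm38, mm10) as protein-coding genes. Igsf9 (ENSMUSG00000037995) lies at chr1:172481788-172498878 on the plus strand, Adam19 (ENSMUSG00000011256) at chr11:46055992-46147343 on the plus strand and Gpr141 (ENSMUSG00000053101) at chr13:19749682-19824257 on the minus strand. Trim12c (ENSMUSG00000057143) lies at chr7:104338754-104353362 and Lst1 (ENSMUSG00000073412), in the class III region of the major histocompatibility complex (MHC), at chr17:35185095-35188439, both on the minus strand. The gene spans were 17.1 kb for Igsf9, 91.4 kb for Adam19, 74.6 kb for Gpr141, 14.6 kb for Trim12c and 3.35 kb for Lst1. Mpp7 (ENSMUSG00000057440) spans 279 kb, Tmtc2 (ENSMUSG00000036019, chr10:105187663-105574451, minus strand) 387 kb, Pde4b (ENSMUSG00000028525, chr4:102087543-102607259, plus strand) 520 kb and Ifrd1 (ENSMUSG00000001627, chr12:40201567-40248504, minus strand) 46.9 kb. Whether intronic reads were counted is not given in the sources used here, so levels are compared between conditions and cell classes for 1 gene at a time and never between genes.

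RefSeq promoter windows (GRCm38.p6) were matched for 7 of the 9 genes, not for Lst1 and Mpp7. The 250 bases before each start were searched on both strands for 6 sets of letters. Those were a core of the macrophage factor PU.1 (GAGGAAGT, in 2.44% of 32851 promoters), the interferon-stimulated response element (GAAA, 2 bases of any kind and GAAA, in 2.98%), the cyclic AMP response element (TGACGTCA, 1.55%), the AP-1 site (TGANTCA, 6.75%), a form of the NF-kappaB site (GGGA, 2 bases of any kind and TTCC, in 1.21%) and the CCAAT box (CCAAT, 33.8%). Windows of 4 genes held at least 1 of them and are printed 5′ to 3′ on the gene's strand, with the matched letters in capitals, because they show which of these letters stand next to the start.
Igsf9 (chr1:172481963-172482212, plus strand): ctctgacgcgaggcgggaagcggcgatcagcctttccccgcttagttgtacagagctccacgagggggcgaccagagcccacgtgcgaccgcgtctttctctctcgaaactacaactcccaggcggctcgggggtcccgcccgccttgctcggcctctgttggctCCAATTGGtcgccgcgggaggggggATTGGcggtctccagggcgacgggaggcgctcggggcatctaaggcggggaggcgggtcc
Trim12c (chr7:104353350-104353599, minus strand): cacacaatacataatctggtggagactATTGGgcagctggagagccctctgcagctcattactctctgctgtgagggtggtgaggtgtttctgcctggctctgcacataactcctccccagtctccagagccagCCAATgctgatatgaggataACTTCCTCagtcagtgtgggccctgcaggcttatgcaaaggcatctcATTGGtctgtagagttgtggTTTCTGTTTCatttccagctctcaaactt
Ifrd1 (chr12:40223190-40223439, minus strand): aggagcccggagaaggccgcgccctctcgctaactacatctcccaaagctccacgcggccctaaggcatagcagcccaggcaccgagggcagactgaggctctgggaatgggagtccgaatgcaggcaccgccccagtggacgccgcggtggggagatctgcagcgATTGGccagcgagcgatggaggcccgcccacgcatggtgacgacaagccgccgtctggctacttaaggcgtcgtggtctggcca
Adam19 (chr11:46055734-46055983, plus strand): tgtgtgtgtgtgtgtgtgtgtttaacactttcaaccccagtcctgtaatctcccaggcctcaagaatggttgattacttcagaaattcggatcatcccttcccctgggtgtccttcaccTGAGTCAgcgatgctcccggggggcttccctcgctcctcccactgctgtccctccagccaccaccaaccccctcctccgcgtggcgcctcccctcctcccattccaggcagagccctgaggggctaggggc
The Trim12c window was the only one of the 12 windows searched to hold more than 1 kind of these motifs. The first letter of its PU.1 core lay 96 bases before the start and that of the interferon element 29 bases before it, both on the other strand. It also held CCAAT letters, on 1 strand or the other, at 223, 116 and 49 bases. Igsf9 held CCAAT letters at 85, 82 and 60 bases before the start and Ifrd1 at 84. In Adam19, 1 of its 3 windows held the AP-1 letters TGAGTCA at 131 bases. The windows of Gpr141 and Tmtc2 and the 4 windows of Pde4b held none of the 6. A match is a run of letters and not a measured binding site. The RefSeq starts of Igsf9, Trim12c and Ifrd1 lie inside the longer GENCODE spans given above.

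**Figure D1:**
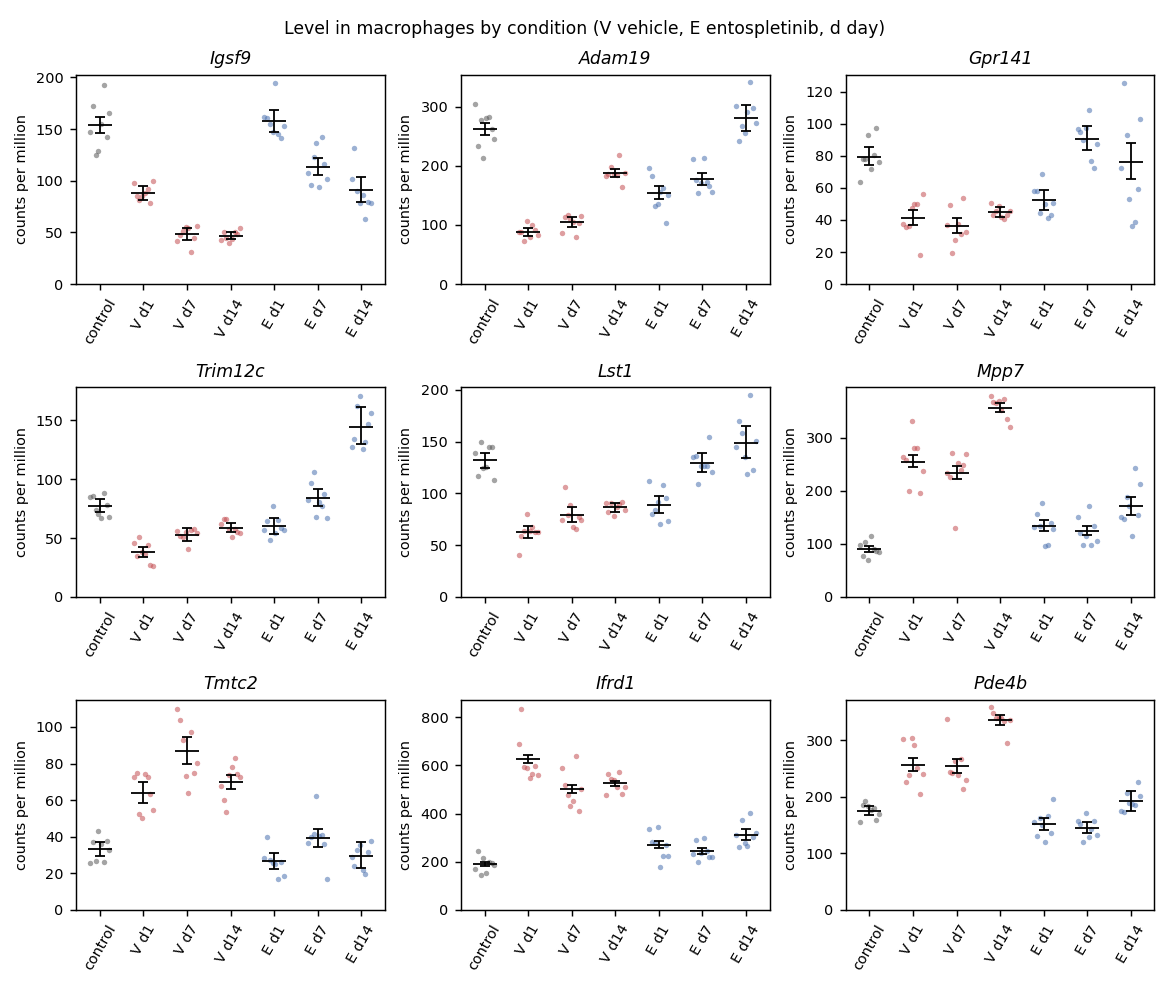
Level of each of the 9 genes in macrophages, in CPM on a linear axis, for control and for vehicle and entospletinib at days 1, 7 and 14. Points are the 8 sublibraries, bars the level of the pooled counts with the 95% exact Poisson interval. Igsf9, Tmtc2, Ifrd1 and Pde4b have no overlap between entospletinib and vehicle sublibraries at any of the 3 days. This contrast chose the genes, and the share of all genes without such overlap is not given.

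Igsf9 belongs to the immunoglobulin superfamily and is known from neuronal dendrites and synapses. In macrophages it stood at 153 CPM in control, at 88.2, 48.0 and 46.9 CPM in vehicle on days 1, 7 and 14, and at 158, 114 and 90.7 CPM in entospletinib on the same days. Vehicle was below control at each day, and the entospletinib pool of day 1 was at the control level. The sublibraries of entospletinib (141 to 195 CPM on day 1, 94.1 to 142 on day 7 and 63.3 to 131 on day 14) and vehicle (78.1 to 99.4, 31.4 to 56.5 and 39.6 to 53.8 CPM) did not overlap. Relative to the median gene, the entospletinib to vehicle ratio was, on the log2 scale, 0.96 (95% interval 0.82 to 1.11), 0.90 (0.71 to 1.104) and 0.89 (0.67 to 1.11), which differed less between days than for any other of the 9 genes.

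Adam19 encodes a membrane-anchored metalloprotease that can shed growth factors such as neuregulins. Its level in macrophages was 262 CPM in control, 88.4, 104 and 188 CPM in vehicle and 154, 178 and 281 CPM in entospletinib on days 1, 7 and 14. In both treatments the pool of day 14 was the highest and that of day 1 the lowest. The sublibrary ranges overlapped on day 1 (103 to 196 CPM with entospletinib, 72.9 to 106 CPM with vehicle) and were apart on days 7 and 14. The log2 ratios were 0.93 (0.78 to 1.08), 0.43 (0.29 to 0.57) and 0.52 (0.39 to 0.64).

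Gpr141 encodes an orphan G protein-coupled receptor of myeloid cells. Macrophages held 79.6 CPM in control, 41.3, 36.2 and 45.1 CPM in vehicle and 52.5, 90.7 and 76.2 CPM in entospletinib. Only day 7 kept the sublibraries apart, with 72.3 to 109 CPM in entospletinib against 19.6 to 53.9 CPM in vehicle. On days 1 and 14 the ranges overlapped and 6 of 8 sublibraries were higher. Its daily log2 ratios were 0.47 (0.24 to 0.71), 0.99 (0.76 to 1.22) and 0.70 (0.46 to 0.93). With every macrophage thinned to 500 counts the day 1 ratio was -0.02, from 43 counts with entospletinib.

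Lst1 (leukocyte specific transcript 1) encodes a small transmembrane adaptor of leukocytes. It measured 132 CPM in control macrophages, 62.4, 79.6 and 86.5 CPM in vehicle and 88.8, 130 and 149 CPM in entospletinib. The pools of day 14 were the highest in both treatments, and the entospletinib pools of days 7 and 14 were close to control. The log2 ratios were 0.63 (0.45 to 0.82), 0.37 (0.20 to 0.53) and 0.72 (0.55 to 0.89), with all 8 sublibraries higher at each day and overlapping ranges on day 1 only (70.0 to 112 against 40.5 to 80.3 CPM).

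Trim12c is a rodent gene of the tripartite motif family, in the same cluster as Trim5. Its level was 77.2 CPM in control, 38.2, 52.8 and 58.9 CPM in vehicle and 60.2, 83.9 and 145 CPM in entospletinib. Day 14 stood out, with 126 to 171 CPM over the entospletinib sublibraries against 50.6 to 66.3 CPM in vehicle. The log2 ratios were 0.78 (0.55 to 1.01), 0.33 (0.13 to 0.53) and 1.24 (1.06 to 1.41). Only 6 of 8 sublibraries were higher on day 7, and with macrophages thinned to 500 counts the day 7 ratio was -0.11. Trim12a, a near-identical neighbour with which reads can be mixed up, stood at 31.8, 51.2 and 53.0 CPM in vehicle and 33.9, 84.1 and 98.3 CPM in entospletinib. The day 1 difference of Trim12c was therefore not matched in size by Trim12a, and how reads were split between the genes was not tested.

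Mpp7, at chr18:7347959-7626866 on the minus strand, encodes a scaffold of the membrane-associated guanylate kinase (MAGUK) family that works in epithelial polarity. Macrophages held 90.4 CPM in control, 255, 234 and 357 CPM in vehicle and 134, 124 and 171 CPM in entospletinib. Each entospletinib pool lay between control and its vehicle pool. The sublibraries were apart on days 1 and 14 and overlapped on day 7 (97.4 to 172 CPM with entospletinib, 129 to 270 CPM with vehicle). Daily log2 ratios were -0.80 (-0.93 to -0.68), -1.25 (-1.38 to -1.13) and -1.12 (-1.27 to -0.98), lower in 8 of 8 sublibraries each day.

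Tmtc2 encodes an O-mannosyltransferase of the endoplasmic reticulum that modifies cadherins. Its level was 33.0 CPM in control, 64.1, 86.9 and 69.9 CPM in vehicle and 26.4, 39.1 and 29.4 CPM in entospletinib. The entospletinib pools were near the control pool, and the sublibraries did not overlap with vehicle at any day (16.8 to 39.9, 17.0 to 62.0 and 19.5 to 37.6 CPM against 50.2 to 74.8, 63.7 to 110 and 53.4 to 82.8 CPM). The log2 ratios were -1.15 (-1.43 to -0.88), -1.49 (-1.71 to -1.27) and -1.31 (-1.68 to -0.96). The day 14 value rests on 69 counts with entospletinib.

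Ifrd1 (interferon-related developmental regulator 1, also Tis7) encodes a transcriptional coregulator that is induced early by growth factors and stress. It measured 189 CPM in control, 626, 501 and 525 CPM in vehicle and 269, 243 and 312 CPM in entospletinib. Vehicle sublibraries (549 to 836, 410 to 641 and 479 to 572 CPM) all lay above those of entospletinib (179 to 342, 197 to 297 and 260 to 404 CPM). The log2 ratios were -1.09 (-1.18 to -1.01), -1.38 (-1.47 to -1.29) and -0.81 (-0.92 to -0.70).

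Pde4b encodes a phosphodiesterase that degrades cyclic AMP and is induced in activated myeloid cells. Its level was 175 CPM in control, 257, 254 and 336 CPM in vehicle and 152, 145 and 192 CPM in entospletinib. Entospletinib sublibraries (120 to 196, 120 to 171 and 173 to 226 CPM) stayed below vehicle (205 to 304, 214 to 337 and 295 to 359 CPM) at each day and overlapped with control (155 to 192 CPM). On the log2 scale the ratios were -0.63 (-0.75 to -0.51), -1.15 (-1.27 to -1.03) and -0.87 (-1.01 to -0.73).

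The comparison of vehicle with control asks how the same genes in macrophages after IRI and vehicle dosing differed from those of uninjured kidneys, and in it surgery, injury and vehicle dosing cannot be told apart. It shares the vehicle pools with the ratios above, so the values stand side by side and nothing is read from their signs together. In vehicle over control, 5 of the 9 genes were lower than the median gene at all 3 days, against 27.5% of all genes, and 4 were higher at all 3 days, against 31.3%. The log2 ratios on days 1, 7 and 14 were -0.93, -1.38 and -1.62 for Igsf9, -1.70, -1.03 and -0.39 for Adam19 and -1.08, -0.84 and -0.73 for Gpr141. Igsf9 was furthest from control on day 14 and Adam19 on day 1. Trim12c (-1.15, -0.25 and -0.30) and Lst1 (-1.21, -0.43 and -0.52) were lowest on day 1. Mpp7 stood at 1.36, 1.67 and 2.07, Ifrd1 at 1.60, 1.71 and 1.56, Tmtc2 at 0.82, 1.70 and 1.17 and Pde4b at 0.42, 0.84 and 1.03, so that Mpp7 and Pde4b were furthest from control on day 14.

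The log2 ratio of entospletinib over control is given beside these values, and again nothing is read from the contrasts together. It was 0.03 for Igsf9 on day 1 (95% interval -0.09 to 0.16) and -0.46 and -0.74 on days 7 and 14. For Adam19 it was -0.77, -0.59 and 0.12, for Gpr141 -0.61, 0.16 and -0.04 and for Lst1 -0.58, -0.05 and 0.20. Trim12c passed control on day 14 with 0.92 (0.74 to 1.11) after -0.37 and 0.09. Mpp7 (0.56, 0.43 and 0.94) and Ifrd1 (0.51, 0.34 and 0.74) stayed above control at each day, whereas Tmtc2 (-0.33, 0.22 and -0.15) and Pde4b (-0.21, -0.30 and 0.15) were on either side of it.

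Macrophages are a mixture, and its make-up differed between the pools. Cells with Slco2b1 or Agmo and neither Mmp12 nor Plau (resident side) were 42.5% of macrophages in control, 21.6, 37.5 and 38.9% in vehicle and 23.6, 42.7 and 43.1% in entospletinib. Cells with Mmp12 or Plau and neither of the others (injury side) were 9.86% in control, 20.6, 14.4 and 14.5% in vehicle and 19.97, 12.3 and 6.47% in entospletinib. Over all conditions Ifrd1 stood at 724 ± 91.6 CPM (SD, n = 8 sublibraries) on the injury side and 242 ± 21.1 CPM on the resident side, Mpp7 at 323 ± 33.7 and 149 ± 11.2 CPM and Pde4b at 322 ± 33.2 and 196 ± 13.8 CPM. Adam19 was lower on the injury side (126 ± 15.6 against 207 ± 15.1 CPM), as was Lst1 (67.6 ± 4.5 against 116 ± 7.7 CPM), while Igsf9 differed by less than the spread (90.1 ± 10.0 against 83.5 ± 6.1 CPM). Gpr141 was higher on the injury side (66.9 ± 8.5 against 37.6 ± 6.7 CPM), Trim12c stood at 57.0 ± 11.7 against 75.2 ± 5.5 CPM and Tmtc2 at 66.9 ± 8.9 against 53.0 ± 4.8 CPM. These sums weigh the conditions differently on each side. Within conditions, the injury side was higher in 7 of 7 for Ifrd1, Mpp7, Pde4b and Tmtc2, in 6 for Gpr141, in 4 for Igsf9, in 1 for Trim12c and in 0 for Lst1. For Adam19 it was lower in 5 of 7 and slightly higher on day 1 in both treatments (89.7 against 79.6 CPM in vehicle, 166 against 158 CPM in entospletinib). Within the resident side the ratio of entospletinib over vehicle kept its sign at all 3 days for 9 of 9 genes, with -1.48, -1.14 and -0.62 for Ifrd1 and 1.23, 0.88 and 1.14 for Igsf9. Within the injury side it did so for 8 of 9, the exception being Igsf9 on day 14 at -0.68, from 7 counts with entospletinib. Sizes differed between the sides, and Ifrd1 on day 14 was -0.30 on the injury side against -0.81 in all macrophages. The genes were chosen for these signs in macrophages, so the kept signs are a description, and the part of the mixture in the ratios was not tested.

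RNA of other myeloid cells in the macrophage gate was measured with the same marker lists. The 8 monocyte markers summed to 235 CPM in control, 441, 1006 and 789 CPM in vehicle and 298, 571 and 392 CPM in entospletinib, against 6278 CPM in monocytes, and 1 of 8 was at 0 on day 7 with entospletinib. Vehicle macrophages thus held more monocyte marker RNA than entospletinib macrophages at each day, and monocytes held more Pde4b and Gpr141 and less Igsf9 and Adam19 than macrophages in 7 of 7 conditions. They held more Mpp7 and Ifrd1 in 6 of 7, the exception being vehicle day 14 (269 against 357 CPM of Mpp7 and 397 against 525 CPM of Ifrd1). At the share that the markers give against the monocytes of the same pool, monocyte RNA on day 7 would carry 109 CPM of Mpp7, 103 CPM of Ifrd1 and 78.6 CPM of Pde4b into vehicle macrophages and 44.1, 51.0 and 33.95 CPM into those of entospletinib. On day 14 the amounts would be 63.4, 93.5 and 93.8 CPM in vehicle and 29.4, 31.6 and 18.7 CPM in entospletinib, and on day 1 they would be 45.0, 40.5 and 31.7 CPM and 24.5, 21.6 and 20.7 CPM. For Gpr141 it would carry 13.7, 20.8 and 99.1 CPM in vehicle and 16.5, 68.3 and 51.4 CPM in entospletinib on days 1, 7 and 14, which on day 14 with vehicle is above the 45.1 CPM measured, so these amounts are no more than upper limits. Without the macrophages that held any monocyte marker, 9 of 9 genes kept their sign at each day, with Ifrd1 at -1.17, -1.15 and -0.83, Mpp7 at -0.94, -1.07 and -1.12, Pde4b at -0.80, -0.93 and -0.98, Igsf9 at 1.16, 0.62 and 1.02 and Gpr141 at 1.04, 1.22 and 1.14. The 6 nonclassical monocyte markers went the other way on each day (818 CPM in control, 587, 441 and 605 CPM in vehicle and 967, 714 and 698 CPM in entospletinib, against 3995 CPM in nonclassical monocytes), none of them at 0. Summed over all conditions, nonclassical monocytes held the most Gpr141 and Lst1, though not in each condition. At the marker share against those of the same pool, they would carry 72.8 and 138 CPM of Gpr141 into vehicle and entospletinib macrophages on day 1. On day 14 they would carry 79.9 and 105 CPM, and each of these amounts is above the level measured. For Lst1 the amounts would be 28.1 and 56.4 CPM on day 1 and 17.6 and 18.4 CPM on day 14. Vehicle day 7 held only 27 such cells and is not given. Without the macrophages that held one of these markers, 9 of 9 genes kept their sign at each day, but 8 of 27 ratios moved by more than 1 SD over sublibraries. Gpr141 was then at 0.26, 0.59 and 0.57 and Lst1 at 0.24, 0.64 and 1.07. The 8 neutrophil markers, with 1 of 8 at 0 in 5 of the 7 conditions, summed to 150 to 267 CPM against 20640 CPM in neutrophils. In the 6 conditions with at least 50 neutrophils, neutrophil RNA would carry at most 47.8 CPM of Mpp7, 40.6 CPM of Pde4b and 22.4 CPM of Ifrd1, all in vehicle pools, and in entospletinib pools at most 15.2, 10.97 and 5.71 CPM. Without the macrophages that held a neutrophil marker, again 9 of 9 kept their sign. The genes were chosen for these signs in the same macrophages, so the counts of kept signs are descriptions only. What RNA of monocytes, nonclassical monocytes or neutrophils added to the ratios was not tested. Syk itself measured 490 CPM in control, 402, 451 and 557 CPM in vehicle and 340, 447 and 481 CPM in entospletinib.

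**Figure D2:**
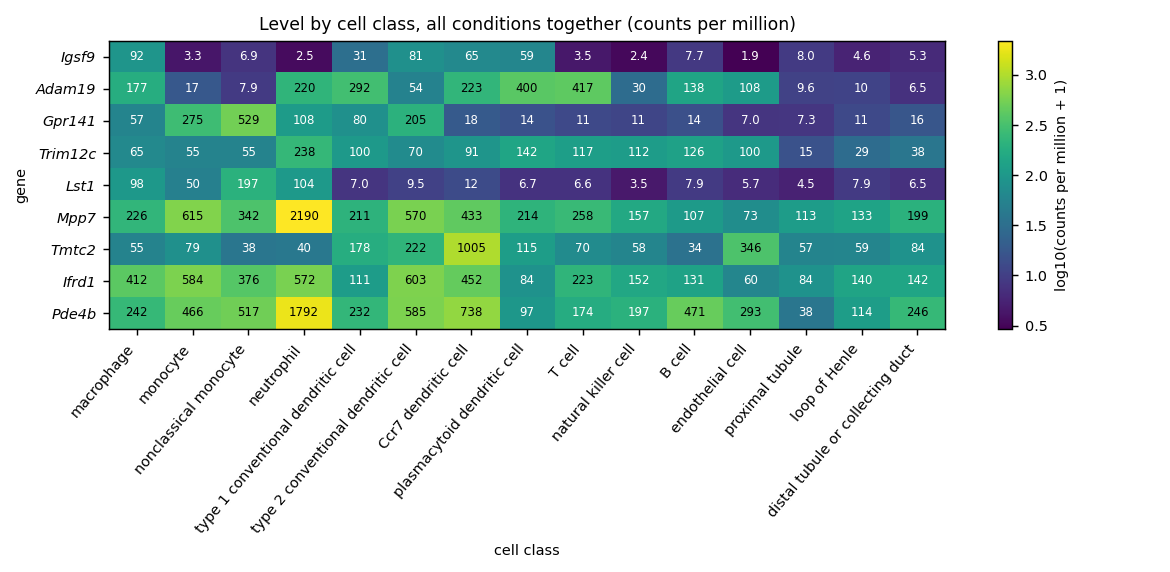
Level of the 9 genes in the cell classes with at least 300 cells, over all conditions, as log10(CPM + 1). Lighter, more yellow cells are higher levels and darker cells are lower levels. Mpp7 and Pde4b are highest in neutrophils (2190 and 1792 CPM), Gpr141 and Lst1 in nonclassical monocytes (529 and 197 CPM), and Igsf9 in macrophages (91.7 CPM).

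Across cell classes the 9 genes had different homes, as the map of levels by class shows. Levels over all conditions are given in CPM ± SD over the 8 sublibraries. They are sums in which each class weighs the conditions by its own counts. The order can differ within conditions that had at least 50 cells of both classes, and such cases are given below but not all of them. Igsf9 was a gene of macrophages (91.7 ± 5.5) and type 2 conventional dendritic cells (cDC2, 80.7 ± 14.7), which did not differ beyond their spread (macrophages were higher in 3 of 7 conditions), followed by Ccr7 dendritic cells (64.7 ± 11.7) and plasmacytoid dendritic cells (59.4 ± 43.2). With vehicle on day 14, plasmacytoid dendritic cells (53.7 CPM, from 14 counts) were above macrophages (46.9 CPM). Monocytes (3.33 ± 1.39), neutrophils (2.53 ± 0.99) and endothelium (1.89 ± 1.11) held almost none. After thinning to 500 counts per cell, 4.47% of macrophages had an Igsf9 count against 0.11% of neutrophils and 0.03% of endothelial cells (18.8, 0.35 and 0.41% unthinned, with median depths of 2632, 1385 and 2413 counts).

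Gpr141 was highest in nonclassical monocytes (529 ± 41.8), then monocytes (275 ± 20.5, which were higher than nonclassical monocytes in 2 of 6 conditions) and cDC2 (205 ± 18.2), with macrophages at 56.8 ± 2.95. Lst1 followed a like order at the top, with nonclassical monocytes at 197 ± 18.6, but neutrophils (104 ± 8.3) and macrophages (98.0 ± 4.95) came next and did not differ beyond their spread (macrophages were higher in 4 of 6 conditions), and all dendritic cell classes were at 12.2 or below. With entospletinib on day 14, macrophages (149 CPM of Lst1) were above nonclassical monocytes (129 CPM). T cells held 11.4 ± 6.2 of Gpr141 and 6.61 ± 2.68 of Lst1. Adam19 was highest in T cells (417 ± 32.7) and plasmacytoid dendritic cells (400 ± 64.6), which overlapped, then type 1 conventional dendritic cells (292 ± 32.6), Ccr7 dendritic cells (224 ± 57.8), neutrophils (220 ± 25.3) and macrophages (177 ± 10.2). With entospletinib on day 14, T cells (265 CPM) were below plasmacytoid (492 CPM) and type 1 conventional (458 CPM) dendritic cells and below macrophages (281 CPM). Neutrophils held more Adam19 than macrophages on day 1 in both treatments and less in the other 4 of 6 conditions. Monocytes (17.0 ± 5.8) and nonclassical monocytes (7.91 ± 2.23) were far below macrophages. Trim12c was broad, with neutrophils at 238 ± 8.4, lymphocyte classes at 112 to 126 and macrophages at 65.1 ± 4.9. With vehicle on day 7, T cells (93.9 CPM) were above neutrophils (82.4 CPM).

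Mpp7 and Pde4b were highest in neutrophils, at 2190 ± 62.0 and 1792 ± 63.8, against 226 ± 6.5 and 242 ± 12.4 in macrophages. Mpp7 stood next highest in monocytes (615 ± 42.6) and cDC2 (570 ± 52.0), which did not differ beyond their spread, monocytes being higher in 4 of 7 conditions. Pde4b followed in Ccr7 dendritic cells (738 ± 111), cDC2 (585 ± 74.0), nonclassical monocytes (517 ± 60.3) and B cells (471 ± 62.4). B cells were above nonclassical monocytes in control (477 against 416 CPM) and on day 1 with vehicle (662 against 613 CPM). The same held with entospletinib on day 1 (487 against 432 CPM) and day 7 (465 against 389 CPM). On day 14 B cells were below them in both treatments. Ifrd1 summed to 603 ± 76.2 in cDC2, 584 ± 52.9 in monocytes, 572 ± 37.2 in neutrophils, 412 ± 29.0 in macrophages and 59.9 ± 7.8 in endothelium, but its order varied with the condition. Neutrophils were above monocytes on day 7 with vehicle (1316 against 637 CPM) and below them on day 1 (455 against 656 CPM). Macrophages were above neutrophils on day 1 in both treatments (626 against 455 CPM in vehicle, 269 against 228 CPM in entospletinib) and below them in the other 4 of 6 conditions. Tmtc2 differed from all of these, with its highest level in Ccr7 dendritic cells (1005 ± 246) and then endothelium (346 ± 17.3), and 55.1 ± 3.45 in macrophages.

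Over the 87 points of 15 classes and up to 7 conditions with at least 50 cells, the genes of at least 20 CPM in macrophages whose log2(CPM + 5) was most like each member's were listed by Pearson correlation, as a description of points that share pools and depth. They were Arhgap22 (0.82) and Rnf180 (0.81) for Igsf9, Gng2 (0.77) and Uba7 (0.72) for Adam19, Nfam1 and Card9 (0.85 each) for Gpr141, and Klra2 (0.92) and Fcgr4 (0.90), both surface receptors, for Lst1. For Trim12c they were Sp100 and Sp110 (0.81 each), nuclear body genes that interferon induces. For Mpp7 they were Ptgs2 (0.87), the inducible cyclooxygenase, and Cass4 (0.86). For Ifrd1 they were Clec7a (0.87), the receptor dectin-1, and Nfkbiz (0.86), an NF-kappaB regulator. Tamalin (0.78) and Ece1 (0.70) followed Tmtc2, and Arih1 (0.83) and Btbd9 (0.82) followed Pde4b.

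**Figure D3:**
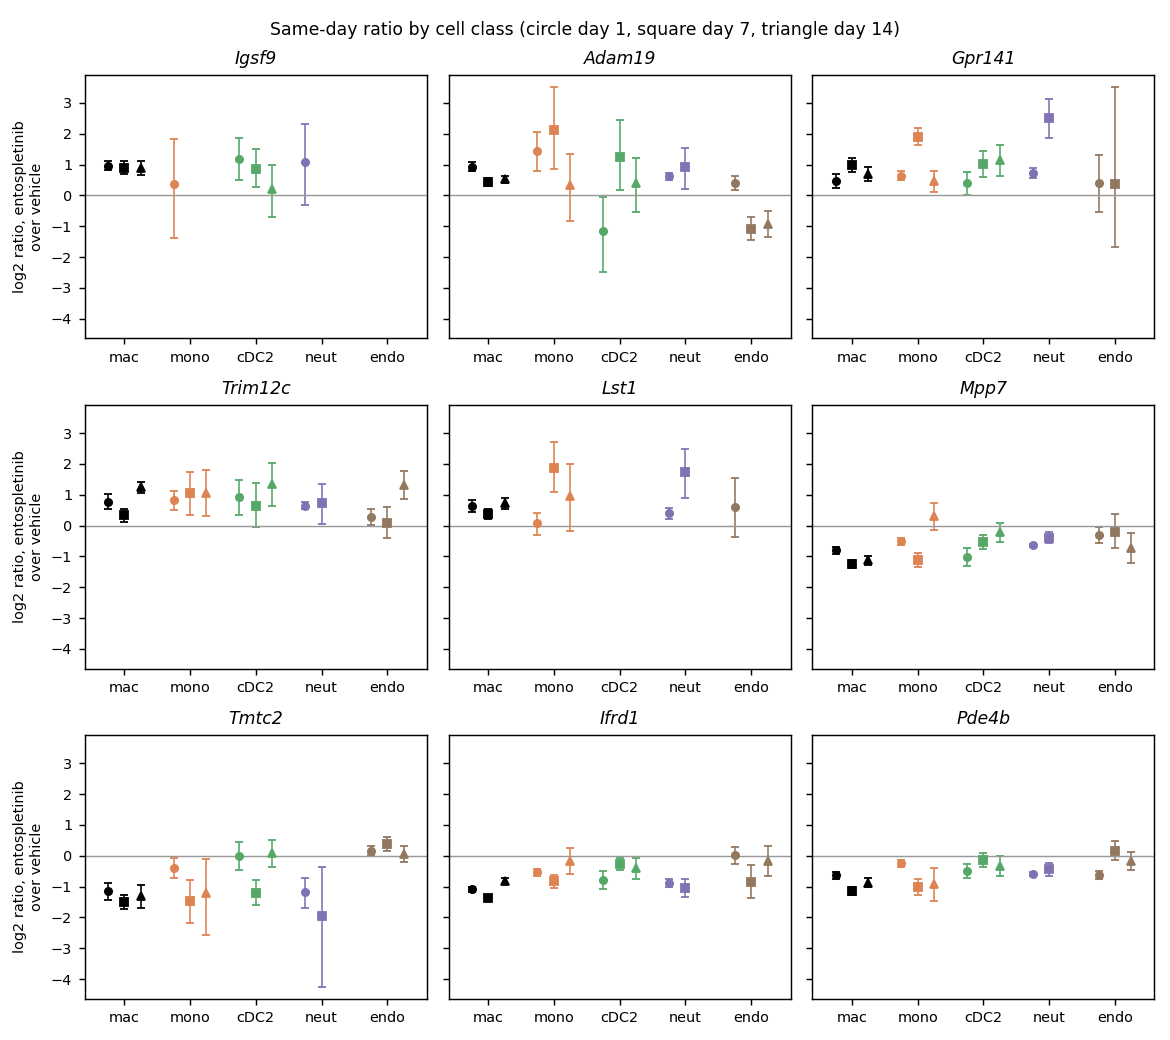
Log2 ratio of entospletinib over vehicle relative to the median gene, for each gene and day, in macrophages, monocytes, cDC2, neutrophils and endothelium, with 95% exact intervals from counts. Points with fewer than 20 counts in both pools together are not drawn. In neutrophils Mpp7, Tmtc2, Ifrd1 and Pde4b lie below 0 on day 1 (-0.63, -1.18, -0.89 and -0.60).

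The same contrast in other classes asks whether the genes moved outside the cells that chose them, although the classes come from the same pools of mice as the macrophages. On day 1 there were 2002 neutrophils in entospletinib and 7128 in vehicle. Of the 9 genes, 4 were lower than the median gene there on day 1 (46.9% of all genes were) and 5 were higher (53.1%). Mpp7 measured 2322 CPM in vehicle and 1384 CPM in entospletinib (log2 ratio -0.63, 95% interval -0.69 to -0.58), Pde4b 1911 and 1168 CPM (-0.60) and Ifrd1 455 and 228 CPM (-0.89). In the other direction, Adam19 measured 231 and 330 CPM (0.63), Gpr141 111 and 170 CPM (0.72), Trim12c 254 and 368 CPM (0.65) and Lst1 112 and 136 CPM (0.39), each in 8 of 8 sublibraries. These genes thus lay on the same side as in macrophages. On day 7, with 98 and 1272 neutrophils, the signs held for 9 of 9, against 27.3% of genes higher and 28.3% lower at both days, Gpr141 with 33.1 and 202 CPM (2.50) and Ifrd1 with 1316 and 693 CPM (-1.04). Igsf9 rested on 21 and 8 counts on day 1, and on day 7 it was low in both pools (2.54 CPM in vehicle and 6.13 CPM in entospletinib).

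In monocytes 4 of the 5 genes that were higher in macrophages were higher than the median gene at all 3 days, against 17.8% of all genes, and 3 of the 4 lower ones were lower at all 3 days, against 14.6%. The exceptions were Igsf9 and Mpp7. Lst1 was counted with a day 1 ratio of 0.07 (-0.29 to 0.42), higher in 5 of 8 sublibraries, while its CPM was lower with entospletinib (49.0 against 54.7 CPM), so that by plain CPM the count was 3 of 5. Gpr141 stood at 221, 128 and 421 CPM in vehicle pools and at 294, 622 and 608 CPM in entospletinib pools, so vehicle monocytes of day 7 were low in it. Pde4b stood at 370, 309 and 222 CPM against 514, 485 and 399 CPM, below vehicle each day. Mpp7 was lower on days 1 and 7 (438 and 401 against 729 and 673 CPM) but not on day 14 (348 against 269 CPM, from 55 and 236 counts). The test over the 3 same-day pairs of pools, with day as a block, was edgeR's quasi-likelihood test with Benjamini-Hochberg adjustment over all genes tested. It called 0 of 8154 genes (0%) in monocytes at an adjusted p of 0.05, where 629 (7.71%) had an unadjusted p under 0.05 and DESeq2 called 0 as well. None of the 8 members tested passed, and 6 of them had an unadjusted p under 0.05. Trim12c came nearest, with a log2 fold change of 0.91 ± 0.21 (SE), an unadjusted edgeR p of 0.0013 and an adjusted p of 0.46. The others were Adam19 at 1.22, Gpr141 at 0.96, Lst1 at 0.75, Mpp7 at -0.51, Ifrd1 at -0.56, Pde4b at -0.74 and Tmtc2 at -0.93. Igsf9 had too few counts to be tested.

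In cDC2 edgeR called 43 of 6751 genes (0.637%), and 2 of the 9 members were among them. Gpr141 rose by 0.81 ± 0.20 on the log2 scale (edgeR adjusted p = 0.029), from 204, 116 and 108 CPM in vehicle to 244, 289 and 248 CPM with entospletinib on days 1, 7 and 14. Trim12c rose by 0.95 ± 0.25 (edgeR adjusted p = 0.049), from 70.2, 46.1 and 54.0 CPM to 121, 88.7 and 144 CPM. The entospletinib pools of both genes lay above all vehicle pools. Both calls were lost with DESeq2 and with no filter on low counts, and Trim12c also without any 1 of the pairs, Gpr141 without the day 7 or the day 14 pair. Igsf9 (0.77 ± 0.26, edgeR adjusted p = 0.21) and Mpp7 (-0.60 ± 0.20, edgeR adjusted p = 0.18) did not pass, nor did Ifrd1 (-0.49), Tmtc2 (-0.41), Pde4b (-0.33), Lst1 (0.68) and Adam19 (0.18). Adam19 in cDC2 was 19.4 against 47.6 CPM on day 1 and 50.0 against 17.1 CPM on day 7, both from few counts.

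Endothelium, which is not of the leukocyte lineage, gave another picture for some of the genes. There edgeR called 18 of 10941 genes (0.165%) and 0 of the 8 members tested, 3 of which had an unadjusted p under 0.05 (8.8% of all genes did), and DESeq2 called no member either. Adam19 had 99.8, 158 and 154 CPM in vehicle and 122, 82.1 and 80.5 CPM in entospletinib, so it was higher on day 1 and lower on days 7 and 14. Its log2 fold change was -0.47 ± 0.22 (edgeR adjusted p = 0.56), and -1.02 without the day 1 pair (edgeR adjusted p = 0.0016). Tmtc2, abundant in these cells, had 264, 528 and 314 CPM with entospletinib against 254, 371 and 306 CPM with vehicle (0.17 ± 0.14, edgeR adjusted p = 0.80). Trim12c reached 169 against 69.6 CPM on day 14, and 93.7 and 99.2 against 83.2 and 85.4 CPM on the other days. Of the 5 genes higher in macrophages, 2 (Gpr141 and Trim12c) were higher in endothelium at all 3 days, against 19.6% of all genes, and of the 4 lower ones 1 (Mpp7) was lower at all 3 days, against 14.6% (2 of 4 by plain CPM). Gpr141 there rested on 21 and 23, 19 and 2, and 10 and 4 counts in entospletinib and vehicle, and each of its 3 intervals included 0. The difference between cell classes was not tested.

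**Figure D4:**
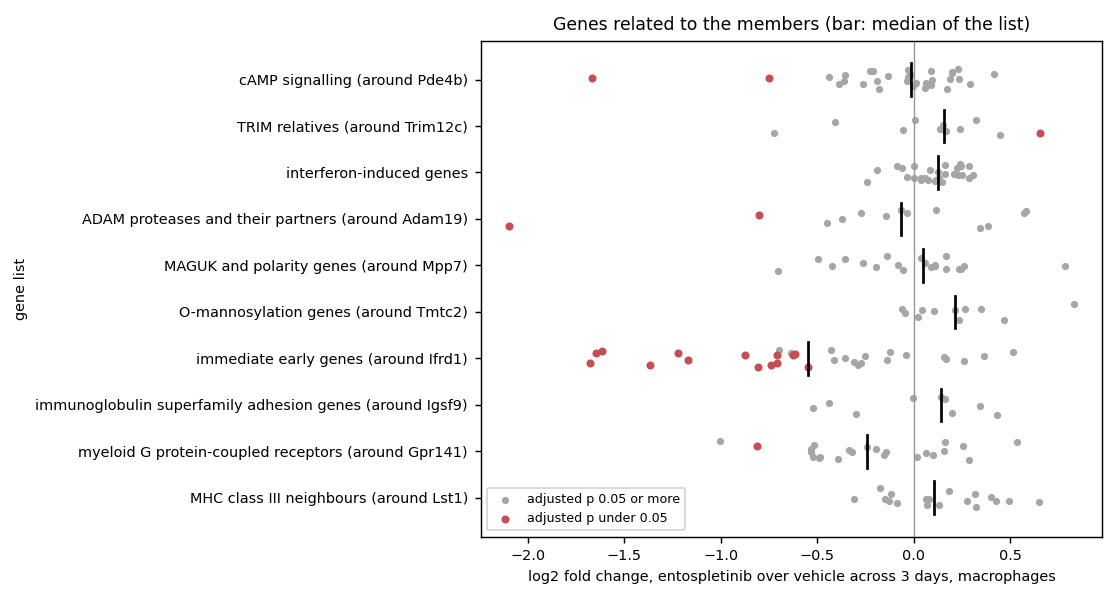
Log2 fold change of entospletinib over vehicle across the 3 days in macrophages for the genes of 10 lists around the members, by edgeR. Each point is a gene, red where the adjusted p is under 0.05, and the bar is the list's median. Immediate early genes have a median of -0.55, against 0.01 for all genes tested.

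Genes that work with the members were looked at from 10 lists of pathway relatives, in macrophages, with the same edgeR model. It called 70 of 13012 genes higher (0.538%) and 250 lower (1.92%). Of the 31 immediate early genes, the set around Ifrd1, 0 rose and 14 fell, and their median log2 fold change was -0.55, against 0.01 over all genes. Nr4a3, an orphan nuclear receptor, fell by 1.62 ± 0.12 on the log2 scale (edgeR adjusted p = 7.3e-05), with 84.7, 90.9 and 258 CPM in vehicle and 27.9, 39.7 and 81.7 CPM with entospletinib. Nr4a2 fell by 1.65 ± 0.20 (edgeR adjusted p = 0.0015) and Dusp5, a phosphatase of ERK kinases, by 1.68 ± 0.26 (edgeR adjusted p = 0.0075). These genes respond quickly to stimulation and to handling of cells, and whether handling differed between pools was not tested.

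Around Pde4b, 2 of 33 cyclic AMP genes tested fell and 0 rose (median -0.01). They were Crem, a cyclic AMP-responsive transcription factor (-0.75 ± 0.13, edgeR adjusted p = 0.011), and Adora2b, an adenosine receptor (-1.67 ± 0.33, edgeR adjusted p = 0.018), which is low at 1.91 to 10.2 CPM after injury. Around Adam19, 2 of 13 genes fell and 0 rose (median -0.06), Nrg1, the ligand that Adam19 can shed (-2.10 ± 0.35, edgeR adjusted p = 0.0095), and Adam8 (-0.80 ± 0.18, edgeR adjusted p = 0.034). Adam8 was highest on day 1, at 237 CPM in vehicle and 159 CPM with entospletinib. Around Trim12c, Trim5 rose (0.65 ± 0.14, edgeR adjusted p = 0.025) and 0 of 12 relatives fell (median 0.16), while 0 of 29 interferon-induced genes passed in either direction (1 with an unadjusted p under 0.05, as had 14.8% of all genes, median 0.12). Of these Rnf213 had 576, 468 and 586 CPM in vehicle and 483, 593 and 601 CPM with entospletinib.

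Around Gpr141, 1 of 23 myeloid G protein-coupled receptors fell and 0 rose (median -0.24), namely Gpr35 (-0.81 ± 0.18, edgeR adjusted p = 0.030). The other 4 lists held no gene past the edgeR test. They were the MAGUK and polarity genes around Mpp7 (20 tested, median 0.05, 4 with an unadjusted p under 0.05), the O-mannosylation genes around Tmtc2 (11, 0.21 and 2), the immunoglobulin adhesion genes around Igsf9 (9, 0.14 and 4) and the MHC class III neighbours of Lst1 (18, 0.10 and 2). For these counts too the share of all genes was 14.8%. Cask, of the MAGUK list, had 201, 205 and 223 CPM in vehicle and 162, 344 and 269 CPM with entospletinib. Cadm1, an adhesion gene of the Igsf9 list, had 1474, 703 and 578 CPM in vehicle and 1150, 1248 and 767 CPM with entospletinib. Tmem260, of the Tmtc2 list, had 34.6, 34.7 and 42.5 CPM in vehicle and 33.9, 51.4 and 47.7 CPM with entospletinib. Clic1, of the Lst1 list, had 189, 87.9 and 88.5 CPM in vehicle and 222, 130 and 128 CPM with entospletinib. With DESeq2 Trim5 and Nrg1 did not pass. Of the companion genes 20 were called in all, 3 without the day 14 pair and 7 without the day 7 pair.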

How the data were processed

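Single-cell RNA-seq was carried out by the authors on leukocyte-enriched kidney cells with the Parse Evercode WT kit, and reads were processed with the Parse pipeline on mm10. The authors deposited raw transcript counts per cell and gene in 1 matrix, with no normalization, and a cell table that gives each barcode's condition. Each of the 8 deposited samples holds cells of all conditions, so conditions came from that table, and the sublibraries were not mapped to samples. Summed counts equalled the cell table for 120281 of 120281 barcodes (388617036 transcripts). The annotation release and the use of strand and introns in counting are not given in the sources used here.

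Cells with over 300 genes, under 20000 counts, under 25% mitochondrial and under 1.5% ribosomal protein counts were kept, following the study's limits. Classes were gated by 3 distinct markers of a fixed list (2 for small lists), of which 1 macrophage marker is not reported here. Cells that reached more than 1 class (13269) or none (12407) were left out, no doublet caller was run, and 4113 macrophages held exactly 3 markers while 3470 cells were 1 short. Counts were summed per class and condition. Ratios are relative to the median ratio of the 3402 genes with at least 50 CPM, which was -0.13, 0.34 and 0.06 (log2) for entospletinib over vehicle on days 1, 7 and 14, and have exact conditional binomial 95% intervals that cover counting error only. Summed pools were tested across all genes with edgeR 4.0.16 in R 4.3.3 (TMM, filterByExpr, quasi-likelihood, day as a block, Benjamini-Hochberg) and with DESeq2 1.42.0 as an alternative, and the script was tested on simulated data, where 2-fold changes were recovered for 78.1% of genes in macrophages, 40.8% in monocytes, 39.6% in cDC2 and 59.2% in endothelium. Python 3.11.15 (scipy 1.17.1, numpy 2.4.6, pandas 2.3.3, matplotlib 3.10.9) was used for gating, ratios and plots.

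The members, lists and tests were chosen with earlier results of these data known. Named were the 9 members, for each companion list up to 3 genes past the test with the largest change or else from the 2 of highest CPM, the 2 genes most like each member, and Syk. Alternatives were another scaling, pseudocount, gate, depth, cell limits, macrophage sides, left-out sublibraries or pairs, DESeq2 and no count filter. Genes on the opposite strand overlap Adam19, Ifrd1, Tmtc2, Gpr141 and Mpp7, and reads of both strands may be mixed there.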

Additional observations from a re-analysis of the deposited data

Results flagged for a closer look

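Among 63 groups of 8 sublibraries (9 genes in 7 conditions, macrophages), 5 held 1 sublibrary far from the other 7, where chance gives about 1 in 20 groups. On day 7 with vehicle, the lowest Trim12c value was 40.3 CPM with the next at 50.9 CPM, and the lowest Mpp7 value 129 CPM with the next at 226 CPM. Pde4b had a highest value of 337 CPM on day 7 with vehicle (next 267 CPM) and a lowest of 295 CPM on day 14 with vehicle (next 334 CPM). Igsf9 had a highest value of 195 CPM on day 1 with entospletinib (next 161 CPM). The cause was not tested.

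In 232 combinations of a gene, another class and a day, all 8 sublibraries of macrophages had the same sign. In 2 of these the other class went the opposite way in all 8 sublibraries with an interval that excluded 0, both for Adam19. Its entospletinib to vehicle ratio on the log2 scale was -0.66 in T cells on day 14, against 0.52 in macrophages, and -1.08 in endothelium on day 7, against 0.43 in macrophages. Gpr141 on day 14 was -1.91 in type 1 conventional dendritic cells, lower in 8 of 8 sublibraries from 5 counts with entospletinib and 168 with vehicle, against 0.70 in macrophages, where 6 of 8 sublibraries were higher. These differences were not tested.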

How the results depend on the processing

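In macrophages, 9 of 9 genes kept one direction of entospletinib over vehicle at all 3 days under the plain CPM ratio, TMM scaling, 0.5 counts added, a gate of 4 markers, the highest marker score, over 500 genes, no ribosomal limit, the resident side, each sublibrary left out, and without cells that held a nonclassical monocyte, neutrophil or monocyte marker (the last 2 chosen after seeing the data). The exceptions were 7 of 9 after thinning to 500 counts (Gpr141 day 1 at -0.017, Trim12c day 7 at -0.11) and 8 of 9 on the injury side (Igsf9 day 14 at -0.68). The genes were chosen for this direction in the same cells, so keeping it was likely from the start and lends no support. The share of all genes that kept a direction is not given. Of the single values, 531 stayed within 1 SD over sublibraries, 33 moved beyond it and 3 turned. For vehicle over control 267 stayed and 3 moved.

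In monocytes, no filter on low counts gave 2 members and 144 genes past 0.05, and leaving out 1 pair gave 0 to 20 genes. In cDC2, DESeq2 gave 0 members and 4 genes, no filter 0 members, and leaving out 1 pair 0 to 1 members and 7 to 75 genes. Adam19 there ranged from -0.35 (without day 7) to 0.75. In endothelium, DESeq2 gave 11 genes, no filter 108, and leaving out 1 pair 0 to 1 members and 2 to 171 genes. Lst1 there ranged from -0.022 (without day 14) to 0.61. In macrophages, no filter gave 652 genes, and leaving out 1 pair 3 to 19 companion genes and 38 to 309 genes. The cause was not tested.

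No paired analysis was possible by the labels' replicate numbers because they only number the samples of 1 mixed group. The edgeR and DESeq2 fits paired the pools by day instead. With 1 pool of 3 mice per condition, differences between pools, mice and treatment cannot be told apart, and treatment was replicated only over days. Cell depth limits the rarer classes.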
